A study of Mus musculus with 5 samples.

Results

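Large peritoneal macrophages are the resident macrophages of the mouse abdominal cavity, and the 10 genes described here are ones by which they are usually recognised: Gata6, Rarb, Rxra, Timd4, Vsig4, Icam2, Adgre1 (named Emr1 on older arrays), Cebpb, Tgfb2 and Prg4. They were chosen by name, and every probe whose RefSeq transcript belonged to one of them was taken. This gave 15 probes for the 10 genes, of 20121 genes with a value on every array. Gata6, Timd4, Vsig4, Icam2 and Cebpb had 1 probe each and the other 5 genes had 2.

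Cells were collected by peritoneal lavage 2 h after female BALB/c mice had been injected into the cavity. All animals were of the same strain and sex and all received an injection, so no array shows an uninjected cavity. The PBS array is from the saline control, the AEPS array from 50 µg of AEPS (a polysaccharide of the roots of Actinidia eriantha), and the OVA array from 25 µg of ovalbumin, a protein antigen. The OVA+AEPS array is from 25 µg of ovalbumin with 50 µg of AEPS, and the OVA+Alum array from 25 µg of ovalbumin with 200 µg of alum, an aluminium salt adjuvant. No array had adjuvant alum without ovalbumin. Each injection was represented by 1 single-colour array of unsorted lavage cells, and the number of mice behind an array is not given in the sources used here. No difference below therefore has a replicate check, no p-value is given, and "higher" and "lower" describe these 5 libraries.

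In the peritoneal cavity, retinoic acid acts through RAR and RXR receptors to induce Gata6, and the zinc-finger factor GATA6 maintains the cavity-specific gene programme of resident macrophages, including Tgfb2. Cebpb encodes a bZIP factor that peritoneal macrophages also need. Timd4 and Vsig4 encode receptors for apoptotic cells and for complement-coated particles, Icam2 and Adgre1 encode surface proteins used to sort these macrophages, and Tgfb2 and Prg4 encode secreted products. Gata6, Tgfb2 and Prg4 are also made by mesothelial cells, which line the cavity.

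Promoter sequence is shown for the receptor genes Rarb and Rxra, and for Timd4, a surface gene that was lower with alum, because a window of each holds a nuclear receptor motif. Rxra has 2 windows in the table, and the other one held none of the motifs searched. RefSeq promoters (mouse assembly GRCm38.p6) were matched for 6 of the 10 genes, in 7 windows. The 250 bases before the transcript start are printed 5′ to 3′ on the gene's strand, with motif matches in capitals. The array files name no genome build.
Rarb, chr14:16575477-16575726, minus strand: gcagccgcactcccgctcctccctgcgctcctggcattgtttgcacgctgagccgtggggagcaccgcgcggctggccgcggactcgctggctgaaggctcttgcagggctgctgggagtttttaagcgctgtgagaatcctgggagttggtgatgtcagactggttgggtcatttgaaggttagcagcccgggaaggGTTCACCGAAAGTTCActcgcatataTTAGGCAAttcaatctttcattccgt
Rxra, chr2:27709042-27709291, plus strand: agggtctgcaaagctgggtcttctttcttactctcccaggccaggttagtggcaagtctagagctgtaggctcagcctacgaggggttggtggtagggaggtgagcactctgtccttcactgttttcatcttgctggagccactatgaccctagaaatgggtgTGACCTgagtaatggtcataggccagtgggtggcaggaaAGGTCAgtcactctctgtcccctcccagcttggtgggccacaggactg
Timd4, chr11:46810549-46810798, plus strand: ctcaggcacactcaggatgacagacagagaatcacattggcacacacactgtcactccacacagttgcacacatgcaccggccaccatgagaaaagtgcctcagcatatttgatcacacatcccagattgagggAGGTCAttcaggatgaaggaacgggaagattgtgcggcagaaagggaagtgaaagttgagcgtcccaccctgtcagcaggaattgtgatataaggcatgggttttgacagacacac
The first run of capitals in Rarb, 52 to 37 bases before the start, matches a direct repeat, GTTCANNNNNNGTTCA, as found in retinoic acid response elements. Searched on both strands, it was in 22 of 32851 RefSeq promoter windows of the same length (0.0670%). Other forms of the repeat were not searched, so this share does not measure how rare such elements are. The second run in Rarb, 26 to 19 bases before the start, is a match of the CEBP motif TTGCNNAA on the minus strand of the window, and that motif was in 9.56% of windows. The capitals in Rxra and Timd4 match the letters AGGTCA, bound by nuclear receptors,, which was in 14.0% of windows. In Rxra the minus-strand match lies 87 to 82 bases and the plus-strand match 48 to 43 bases before the start, and in Timd4 the match lies 116 to 111 bases before it. The GATA letters TGATAA and AGATAA, in 7.94% and 9.99% of windows, were in none of the 7 windows, which says only that these letters are not there. These matches describe sequence and are not evidence that a factor binds.

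Levels are log2 processed signal minus the array's 75th percentile, so a level above 0 is brighter than most spots. A gene's level is that of its brightest probe, and levels are compared between arrays and never between probes. The technical SE comes from the scanner's error for each spot. It holds neither mouse-to-mouse nor array-to-array variation, and it had a median of 0.208 for a log2 difference over all genes. A difference of at least 2-fold (1 on the log2 scale) is called. All 10 genes had a brightest probe well above background on all 5 arrays, as did 14 of the 15 probes. The arrays had 56.7% to 60.0% of 55681 probes above background and lay on the same slide. The PBS array was alone in its slide row, so row and PBS cannot be told apart. The median difference of all genes was -0.17 for AEPS vs PBS, -0.14 for OVA vs PBS and -0.15 for OVA+AEPS vs PBS, and differences from PBS are to be read against it. Scaling to spike-in probes moved that median to 0.36 for AEPS vs PBS and raised the share of called genes that were higher from 55.9% to 88.0%.

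**Figure D1:**
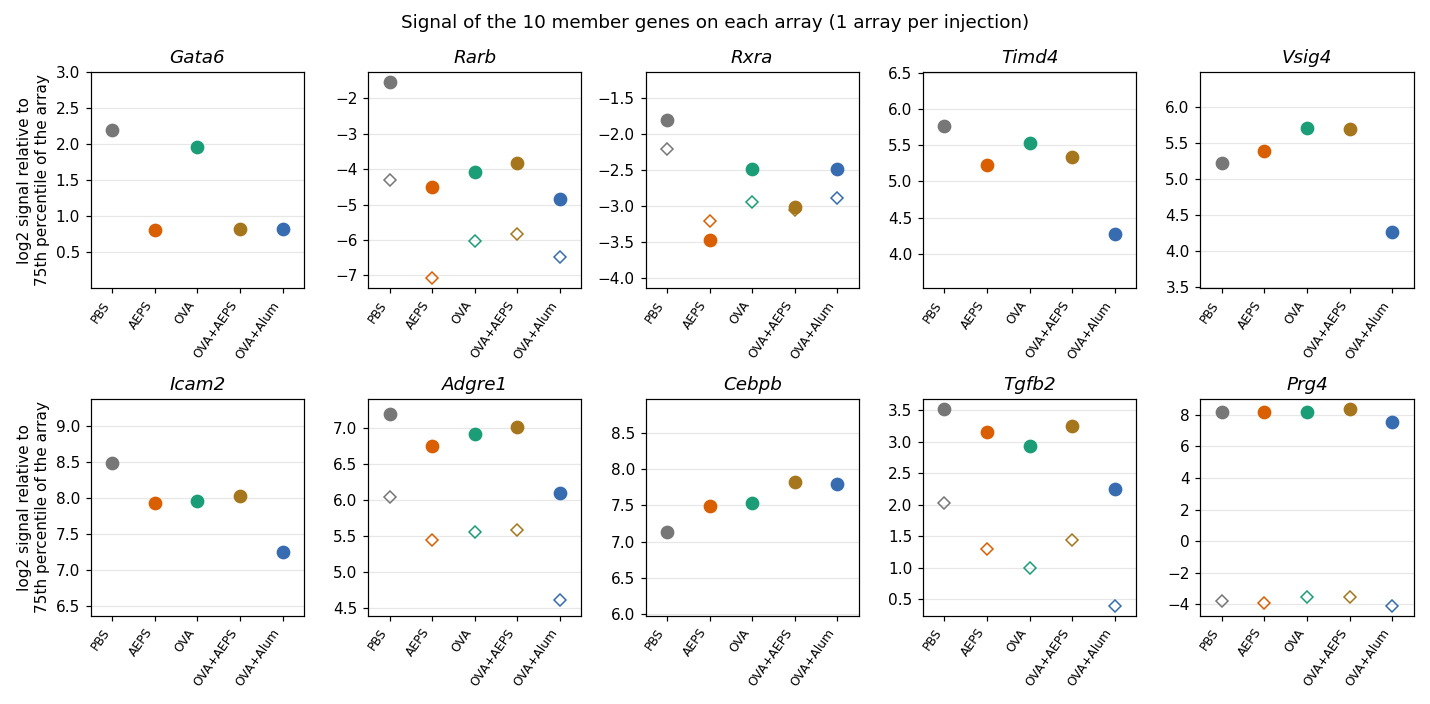
Log2 signal relative to the array's 75th percentile (vertical axis) for each of the 10 genes on the PBS, AEPS, OVA, OVA+AEPS and OVA+Alum arrays (horizontal axis). Filled circles are the brightest probe, open diamonds a second probe where there is one (for Rarb it was above background on the PBS array alone), and vertical scales differ between panels. Gata6 falls into 2 levels, near 2 on PBS and OVA and near 0.8 on the other arrays, while Timd4, Vsig4, Icam2, Adgre1, Tgfb2 and Prg4 are lowest on OVA+Alum.

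Gata6, the factor at the head of the programme, had levels of 2.20 on the PBS array, 0.81 on AEPS, 1.96 on OVA, 0.83 on OVA+AEPS and 0.82 on OVA+Alum. The arrays thus formed a high pair, PBS and OVA, and a low group made of both AEPS arrays and the alum array. Within the low group the gaps between neighbours in the order were 0.01 and 0.0062, far within the technical SE of 0.20. Between PBS and OVA the gap was 0.24, just over that SE. The difference between AEPS and PBS was -1.39 ± 0.20 (technical SE), or 2.62-fold lower, and -1.22 relative to the median of all genes. Between OVA+AEPS and OVA it was -1.13 ± 0.20, or 2.19-fold lower. Between OVA+Alum and OVA it was -1.14 ± 0.20, or 2.20-fold lower. The Gata6 level was thus about equally low on the arrays of both adjuvants, and ovalbumin without adjuvant did not come with a 2-fold difference. The size of the AEPS difference depended on scaling: it was -0.87, under 2-fold, with spike-in scaling, which also took OVA+AEPS vs OVA to -0.89. It remained below 0 under each of the 7 ways of computing the values. For OVA+Alum vs OVA the range was -1.17 to -0.97.

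Of the 9 other GATA family members and cofactors in the list, 8 were measured (7 in AEPS vs OVA), and 0 of these were called in any of the 9 comparisons. Over all genes, 1309 of 14933 were called higher and 1034 lower in AEPS vs PBS, so 0 of 8 is close to the share of all genes. Zfpm2 was not well above background on any array. In AEPS vs PBS the 2 largest differences among those above background on both arrays were -0.69 ± 0.20 for Lmo2, an adaptor of GATA complexes, and -0.60 ± 0.20 for Ldb1, its binding partner. Between OVA+Alum and OVA the largest was 0.60 ± 0.20 for Gata3, a factor of T cells and innate lymphoid cells.

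Rxra, which encodes the partner receptor shared by RARs, had levels of -1.81 on PBS, -3.47 on AEPS, -2.49 on OVA, -3.02 on OVA+AEPS and -2.48 on OVA+Alum. Its lowest values were on both AEPS arrays, and OVA and OVA+Alum lay within 0.01 of each other. AEPS was 3.15-fold below PBS (-1.66 ± 0.24), and OVA+AEPS was 2.31-fold below PBS (-1.20 ± 0.22). OVA+AEPS against OVA was smaller, at -0.52 ± 0.23. A second Rxra probe gave -1.002 ± 0.23 for AEPS vs PBS and -0.10 ± 0.23 for OVA+AEPS vs OVA, so the probes had the same sign but the second put OVA and OVA+AEPS within the technical SE. With normexp background correction, which shrinks differences of dim probes, AEPS vs PBS was -0.82.

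Rarb, a retinoic acid receptor gene that is itself induced by retinoic acid, had the widest range of the 10 genes. Its levels were -1.53 on PBS, -4.50 on AEPS, -4.07 on OVA, -3.81 on OVA+AEPS and -4.85 on OVA+Alum. The PBS array stood alone, with a processed signal of 117 against 14.6 to 28.3 on the other arrays. Neighbours in the order of those arrays were mostly within the technical SE, but OVA+AEPS vs OVA+Alum, its ends, was 1.04 ± 0.33. Rarb was 7.87-fold lower on AEPS (-2.98 ± 0.31), 5.82-fold lower on OVA (-2.54 ± 0.24), 4.88-fold lower on OVA+AEPS (-2.29 ± 0.24) and lowest of all on OVA+Alum (-3.32 ± 0.30), each against PBS. These share the PBS array, so they are not separate evidence. The second Rarb probe was well above background on PBS alone, where it was at least 1.47-fold higher than on AEPS, 1.91-fold than on OVA, 1.60-fold than on OVA+AEPS and 2.04-fold than on OVA+Alum. These folds are bounds, set against the lowest signal that counted as above background on the dimmer array or the probe's own signal there, whichever was larger. With normexp the Rarb difference from PBS was between -1.49 and -1.20 on the 4 arrays, still over 2-fold. For Rarb the injection, the slide row and the single PBS library cannot be told apart.

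Cebpb, in contrast to the other factors, was lowest on PBS. Its levels were 7.13 on PBS, 7.49 on AEPS, 7.53 on OVA, 7.82 on OVA+AEPS and 7.79 on OVA+Alum. No Cebpb difference reached 2-fold, the widest being 0.70 ± 0.20 for OVA+AEPS vs PBS, which became 1.07 with spike-in scaling. AEPS and OVA lay within the technical SE of each other, as did OVA+AEPS and OVA+Alum. CEBPB is also an inducible factor of inflamed cells and is present in neutrophils, whose markers were higher on all 4 arrays than on PBS, as given below with the other cell types.

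The retinoic acid pathway was examined as a list of 30 other genes (receptors, enzymes, binding proteins and co-regulators). In AEPS vs PBS, 26 were measured, 2 were higher (Dhrs9 and Stra6) and 3 lower, with a median of -0.24 beside -0.17 for all genes. Over all genes, 1309 of 14933 were called higher and 1034 lower there, so these counts are not far from the shares of all genes. Stra6 was not well above background on PBS, so the size of its difference is uncertain. The 3 lower genes were Cyp26a1, which degrades retinoic acid, at -2.82 ± 0.30, Dhrs3, which reduces retinaldehyde, at -2.31 ± 0.20, and the receptor Rarg at -1.73 ± 0.20. Dhrs9, an enzyme of retinol oxidation, was higher by 1.07 ± 0.21. Rarg followed the AEPS arrays: it was at 3.61 on PBS, 1.88 on AEPS, 2.82 on OVA, 1.81 on OVA+AEPS and 2.69 on OVA+Alum. In OVA+AEPS vs OVA, 0 of 26 were higher and 4 were lower (Rara, Rarg, Dhrs9 and Cyp26a1), with a median of -0.12 beside -0.02 for all genes. Over all genes, 609 of 14906 were called higher and 556 lower there. With alum added to ovalbumin, 4 of 28 were higher and 2 lower, with a median of 0.36 beside 0.08. Over all genes, 624 of 15057 were called higher and 835 lower there. Of the 4, Crabp1, a binding protein gene, was not well above background on OVA. The largest there were Cyp26a1 at -2.45 ± 0.31, the retinol carrier Rbp4 at 1.86 ± 0.21, the retinaldehyde dehydrogenase Aldh1a1 at 1.62 ± 0.20 and the retinol uptake receptor Stra6 at 1.03 ± 0.35. Aldh1a1 is also in the list of mesothelial and stromal markers, which were higher on that array. The receptor Rara, named after its values were seen, was 5.90 on OVA+Alum and 5.29 on OVA but 4.15 on OVA+AEPS, so RAR genes did not share an order of arrays.

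**Figure D2:**
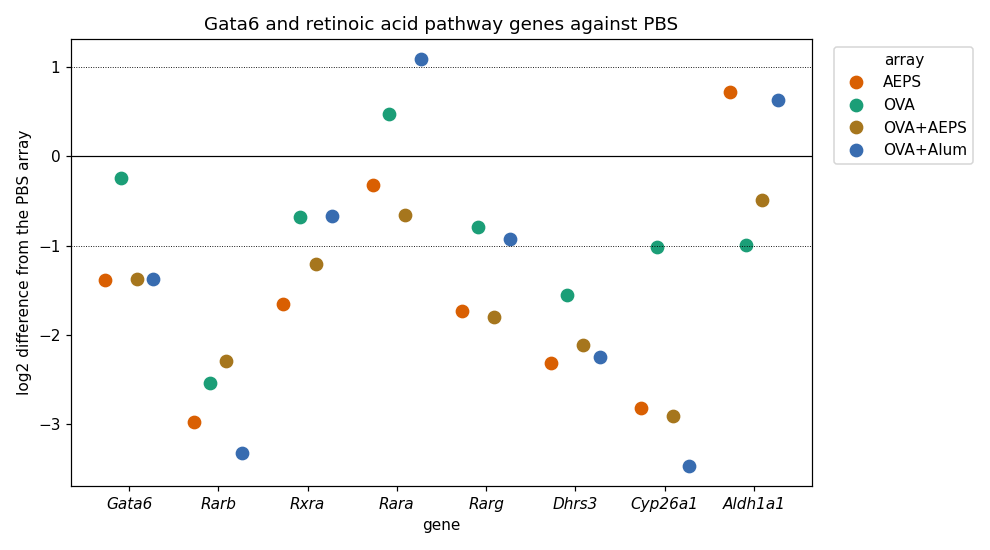
Log2 difference from the PBS array (vertical axis) for Gata6, Rarb, Rxra and 5 further retinoic acid pathway genes (horizontal axis) on the AEPS, OVA, OVA+AEPS and OVA+Alum arrays. Dotted lines mark 2-fold, and each point is 1 array against the same PBS array. Gata6, Rxra and Rarg are lower on both AEPS arrays than on OVA, and Rarb, Dhrs3 and Cyp26a1 are at or below the 2-fold line on all 4 arrays.

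Other macrophage transcription factors were taken as a list of 26. In AEPS vs PBS, 3 were higher and 9 lower, where 6.92% of all genes were called lower. The list's median was -0.22, beside -0.17 for all genes. Among the lower genes Klf4, a zinc-finger factor, was at -2.10 ± 0.20, Nr1h3 (the oxysterol receptor LXR alpha) at -2.00 ± 0.20 and Cebpe, of the granulocyte lineage, at -1.87 ± 0.20. In OVA+AEPS vs OVA, 0 were higher and 5 lower, where 3.73% of all genes were called lower, with a median of -0.16 beside -0.02. In OVA+Alum vs OVA, 0 were higher and 1 lower, Tfec at -1.69 ± 0.20, where 5.55% of all genes were called lower, with a median of 0.02 beside 0.08.

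Of the surface receptors, Timd4, which binds phosphatidylserine on dying cells, was lowest with alum. Its levels were 5.77 on PBS, 5.22 on AEPS, 5.53 on OVA, 5.33 on OVA+AEPS and 4.27 on OVA+Alum. OVA+Alum lay 0.95 below the next array, AEPS. From AEPS to OVA+AEPS and from there to OVA the gaps were within the technical SE, but AEPS vs OVA was -0.31 ± 0.20. Timd4 was 2.39-fold lower on OVA+Alum than on OVA (-1.26 ± 0.20) and 2.81-fold lower than on PBS (-1.49 ± 0.20). The range over 7 ways of computing was -1.35 to -1.14 for OVA+Alum vs OVA.

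Vsig4, a complement receptor of resident macrophages, had levels of 5.22 on PBS, 5.38 on AEPS, 5.70 on OVA, 5.69 on OVA+AEPS and 4.27 on OVA+Alum. It was the only 1 of the 10 genes that was highest on OVA, and it was lowest on the alum array. It was 2.70-fold lower on OVA+Alum than on OVA (-1.43 ± 0.20) but under 2-fold lower than on PBS (-0.95 ± 0.20). OVA and OVA+AEPS did not differ beyond the technical SE (-0.0074 ± 0.20).

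Icam2, an adhesion molecule, had levels of 8.49 on PBS, 7.93 on AEPS, 7.96 on OVA, 8.03 on OVA+AEPS and 7.25 on OVA+Alum. PBS was highest, AEPS, OVA and OVA+AEPS lay within the technical SE of their neighbours, and OVA+Alum was 0.68 below them. Against PBS it was 2.37-fold lower on OVA+Alum (-1.24 ± 0.20), and against OVA the difference was -0.71 ± 0.20, under 2-fold.

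Adgre1, which encodes the F4/80 antigen, had levels of 7.18 on PBS, 6.75 on AEPS, 6.91 on OVA, 7.01 on OVA+AEPS and 6.10 on OVA+Alum. The 4 arrays without alum lay within the technical SE of their neighbours, though AEPS vs PBS was -0.44 ± 0.20, and OVA+Alum was 0.65 below. Adgre1 was 2.13-fold lower on OVA+Alum than on PBS (-1.09 ± 0.20), a difference that was -0.83 with spike-in scaling and -0.96 with scaling to the median of each array, under 2-fold in both. A second probe gave -1.43 ± 0.20. Against OVA the probes gave -0.82 ± 0.20 and -0.95 ± 0.20.

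Of the secreted products, Tgfb2, a growth factor, had levels of 3.52 on PBS, 3.15 on AEPS, 2.93 on OVA, 3.25 on OVA+AEPS and 2.24 on OVA+Alum. OVA+Alum was lowest by 0.69. Tgfb2 was 2.43-fold lower on OVA+Alum than on PBS (-1.28 ± 0.20), and a second probe gave -1.64 ± 0.20. In OVA vs PBS the probes differed in their call, with -0.59 ± 0.20 for the brighter and -1.03 ± 0.20 for the second. In OVA+AEPS vs OVA+Alum both probes were over 2-fold higher, at 1.01 ± 0.20 and 1.04 ± 0.20.

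Prg4, which encodes the lubricant proteoglycan lubricin, had levels of 8.18 on PBS, 8.17 on AEPS, 8.17 on OVA, 8.37 on OVA+AEPS and 7.52 on OVA+Alum. It was level on the 4 arrays without alum, whose neighbours in the order were all within the technical SE. OVA+Alum was 0.65 below the next array, and no difference reached 2-fold against PBS (-0.66 ± 0.20) or OVA (-0.65 ± 0.20). A second, dim probe gave -0.30 ± 0.29 and -0.56 ± 0.27.

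The comparisons the design implies share arrays (PBS is in 4 of the 9, and OVA in 4), so their values are given side by side and not as separate evidence. In AEPS vs PBS, 3 of the 10 genes were called, all lower (Gata6, Rarb and Rxra), where 6.92% of 14933 genes were called lower by the same rule. The members' median was -0.49, beside -0.17 for all genes. With spike-in scaling or with normexp, 2 of these 3 stayed past 2-fold. The 7 other members lay between -0.56 ± 0.20 (Icam2) and 0.36 ± 0.20 (Cebpb). With spike-in scaling Adgre1 was at 0.09, Tgfb2 at 0.15 and Prg4 at 0.52, the opposite sign.

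In OVA vs PBS, 1 of 10 was called, Rarb, lower, where 4.10% of 15043 genes were called lower. The members' median was -0.25, beside -0.14. In OVA+AEPS vs PBS, 3 of 10 were called lower (Gata6, Rarb and Rxra), where 6.21% of 14985 were, with a median of -0.35 beside -0.15. With spike-in scaling 1 was lower there, Rarb, and 1 higher, Cebpb.

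In OVA+Alum vs PBS, 6 of 10 were called lower (Gata6, Rarb, Timd4, Icam2, Adgre1 and Tgfb2), where 5.20% of 15068 were. The members' median of -1.16 stood beside -0.06 for all genes, and 9 of 10 were below 0, Cebpb being the exception. With spike-in scaling, 4 of these genes were past 2-fold, and with scaling to the median of each array 5 were.

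Adding AEPS to ovalbumin, OVA+AEPS vs OVA, gave 1 of 10 called, Gata6, lower, where 3.73% of 14906 were called lower. The members' median was 0.08, beside -0.02 for all genes, and 6 of 10 were above 0. Adding alum to ovalbumin, OVA+Alum vs OVA, gave 3 of 10 called lower (Gata6, Timd4 and Vsig4), where 5.55% of 15057 were. The members' median was -0.75 beside 0.08, and 8 of 10 were below 0, all but Cebpb (0.26 ± 0.20) and Rxra (0.01 ± 0.22). With normexp Gata6 was at -0.97 there and was not called.

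Set against each other with ovalbumin, OVA+AEPS vs OVA+Alum, 4 of 10 were called, all higher with AEPS (Rarb, Timd4, Vsig4 and Tgfb2), where 6.79% of 14979 genes were called higher. The members' median was 0.88 beside -0.06. Rarb at 1.04 ± 0.33, Timd4 at 1.06 ± 0.20 and Tgfb2 at 1.01 ± 0.20 stood at the threshold, so that with scaling to the median of each array or with normexp only Vsig4 (1.43 ± 0.20) was called. Gata6 did not differ beyond the technical SE there (0.0062 ± 0.20), and Rxra had the opposite sign (-0.54 ± 0.23).

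In AEPS vs OVA, 1 of 10 was called, Gata6, 2.22-fold lower (-1.15 ± 0.20), where 3.32% of 14853 genes were called lower. Rxra, at -0.98 ± 0.25, was just short of 2-fold. With spike-in scaling neither was called. In OVA+AEPS vs AEPS, 0 of 10 were called, where 2.07% of 14686 genes were called higher and 1.93% lower. All 10 members were above 0 in it, from 0.02 for Gata6 to 0.69 ± 0.33 for Rarb, with a median of 0.23 beside 0.0043 for all genes. With spike-in scaling Gata6 (-0.13), Timd4 (-0.04), Icam2 (-0.05) and Tgfb2 (-0.05) were below 0.

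**Figure D3:**
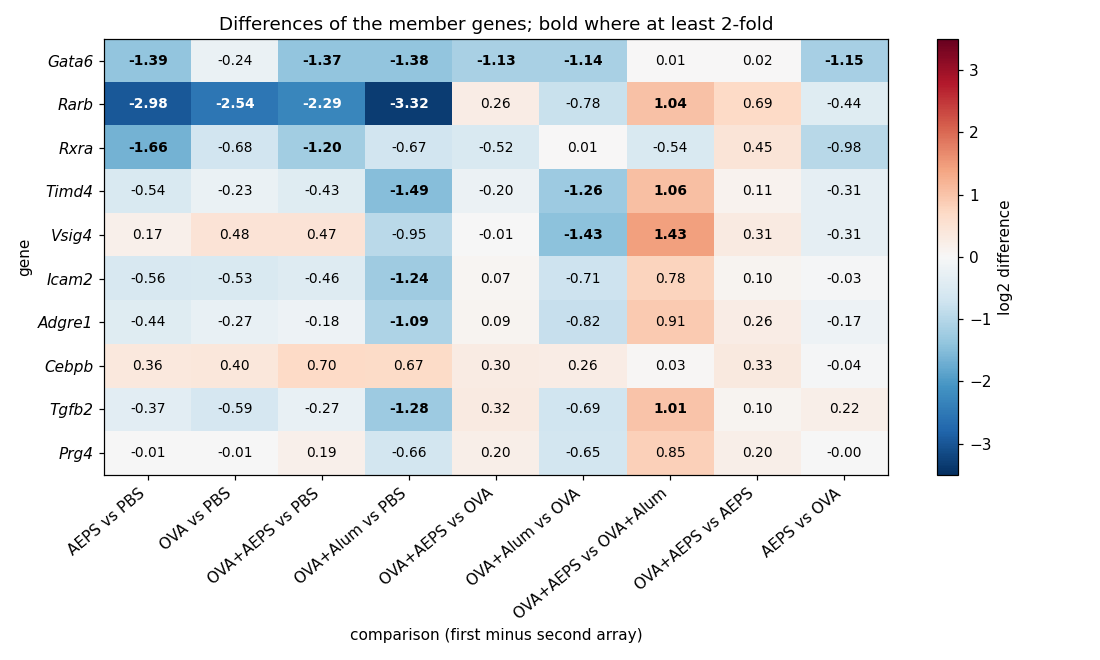
Log2 difference of each of the 10 genes (rows) in the 9 comparisons (columns, first minus second array), with red for higher and blue for lower on the first array and bold where at least 2-fold. Gata6 is at least 2-fold lower in 6 columns, Rarb is past 2-fold in each column with PBS, and the OVA+Alum vs PBS column holds 6 genes at least 2-fold lower.

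By array, 7 of the 10 genes (Rarb and the 6 surface and secreted genes) were lowest on OVA+Alum, where 22.0% of 15577 genes above background on any array were lowest. Gata6 and Rxra were lowest on AEPS, which was so for 21.8% of genes, and Cebpb on PBS. The lowest place is unresolved for Rarb, where the gap to AEPS was 0.35 with a technical SE of 0.38. It is also unresolved for Gata6, where the gap to OVA+Alum was 0.01 with a technical SE of 0.20. PBS was highest for 7 of 10 genes, beside 37.1% of all genes. The closest patterns among the 45 pairs of members, by the root mean square distance between log2 levels centred on each gene's mean over the 5 arrays, were Icam2 with Adgre1 (0.10) and Icam2 with Tgfb2 (0.11). Gata6 was closest to Rxra (0.40), and the farthest pair was Rarb with Cebpb (1.38). These distances describe 5 arrays that the genes share.

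Among 3547 genes above background on every array with a range of at least 2-fold, those most like Gata6 by that distance were Plpp7 (0.13), Cacna1f (0.15), Hdhd3 (0.21), Fam20c (0.21) and H2ac21 (0.23). Fam20c, a secretory pathway kinase, was at 4.88 on PBS, 3.25 on AEPS, 4.45 on OVA, 3.85 on OVA+AEPS and 3.36 on OVA+Alum. Those most like Rarb were Lhx8 (0.21), Pgap4 (0.28), Cfap45 (0.33), 0610040B10Rik (0.35) and Ccdc9b (0.35), all far higher on PBS than on the other 4 arrays. Those most like Timd4 were Srpx (0.04), Pex11a (0.08), Idh1 (0.08), Arhgef5 (0.09) and Adcy4 (0.10). These are likenesses over 5 arrays and say nothing of shared function.

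A list of 29 other genes of large peritoneal macrophages was read beside the members. In AEPS vs PBS 1 was higher and 3 were lower: the lipid scavenger receptor Cd36 at 1.21 ± 0.20, and Wnt2 at -1.28 ± 0.22, the pathogen sensor Naip1 at -1.05 ± 0.20 and the scavenger receptor Marco at -1.04 ± 0.20. In OVA+AEPS vs OVA, 0 of 29 were called. In OVA+Alum vs OVA, 0 were higher and 9 were lower, with a median of -0.61 beside 0.08 for all genes. The largest were the B cell chemokine Cxcl13 at -2.20 ± 0.20, Wnt2 at -2.19 ± 0.26, Cd36 at -2.09 ± 0.20 and the aspartoacylase Aspa at -1.87 ± 0.20. In OVA+Alum vs PBS, 0 were higher and 14 of 29 lower, with a median of -0.93 beside -0.06. Over all genes, 5.55% were called lower in OVA+Alum vs OVA and 5.20% in OVA+Alum vs PBS. Like the 6 surface and secreted members, this list was thus lower on the alum array. In AEPS vs PBS 6.92% of all genes were called lower and in OVA+AEPS vs OVA 3.73%, so the few or no calls there are near those shares. The list's median was -0.18 beside -0.17 for all genes in AEPS vs PBS, and 0.09 beside -0.02 in OVA+AEPS vs OVA.

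Lists built around single members gave the following. The counts of these and the other lists are to be read beside those of all genes. In AEPS vs PBS, 1309 of 14933 genes were called higher and 1034 lower. In OVA+Alum vs OVA, 624 of 15057 were higher and 835 lower. Of 21 TIM family members and other apoptotic cell receptors, 4 were higher and 1 lower in AEPS vs PBS, among them the TIM genes Timd2 (1.38 ± 0.30) and Havcr1 (1.28 ± 0.34). With alum added to ovalbumin 1 was higher, the bridging ligand Gas6 at 1.56 ± 0.20, and 4 were lower, among them the complement opsonins C1qb (-1.04 ± 0.20) and C1qa (-1.03 ± 0.20). Of 14 complement receptors and regulators, 0 were higher and 3 lower on OVA+Alum than on OVA. Of 14 ICAM family members and integrins, 1 was higher in AEPS vs PBS, Vcam1 at 2.02 ± 0.20, and 1 was lower in OVA+Alum vs OVA, Itga6 at -1.08 ± 0.20. Of the same 14 complement receptors and regulators, 13 were measured in AEPS vs PBS, and 0 were higher and 2 lower. The lower ones were the anaphylatoxin receptor C3ar1 at -2.29 ± 0.20 and Vsir, a checkpoint relative of the B7 family, at -1.59 ± 0.20. Of 10 EGF-TM7 and related adhesion receptors, 8 were measured in AEPS vs PBS, where 2 were higher and 1 lower. In OVA+Alum vs OVA 9 were measured, and 3 were higher and 1 lower. Adgre4, a close relative of Adgre1, differed between OVA+Alum and OVA by -1.48 ± 0.20. Of the 28 genes of the TGF-beta pathway, 26 were measured, and 2 were higher and 1 lower in AEPS vs PBS. These were the SKI family gene Skil (1.48 ± 0.20), the co-repressor Tgif1 (1.03 ± 0.20) and Ski (-1.42 ± 0.25). Between OVA+Alum and OVA 2 were higher, Lrrc32 (1.49 ± 0.20), which anchors latent TGF-beta, and the inhibitor Smad7 (1.01 ± 0.20), and 0 were lower.

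The cells were a mixture, and in bulk RNA fewer macrophages and less RNA per macrophage cannot be told apart. Genes shared by most macrophages, which are also in the list of 29 other large peritoneal macrophage genes, were therefore read beside the members. Csf1r, the CSF1 receptor, was at 8.34 on PBS, 7.64 on AEPS, 8.02 on OVA, 7.81 on OVA+AEPS and 7.47 on OVA+Alum. Lyz2, a lysozyme of all myeloid cells, was at 9.41, 8.95, 9.05, 9.14 and 8.52 on the same arrays in that order. Both were lowest on OVA+Alum, and Csf1r differed between OVA+Alum and OVA by -0.55. Itgam, the integrin CD11b, was at 6.38, 5.49, 5.80, 5.69 and 5.27, Cd93 at 5.57, 4.58, 4.71, 4.60 and 4.46, and the endotoxin co-receptor Cd14 at 8.74, 9.56, 9.17, 9.50 and 9.18. Cd14 thus had its lowest level on PBS, where the other 4 had their highest. In OVA+Alum vs OVA, Lyz2 differed by -0.54, Itgam by -0.53, Cd93 by -0.25 and Cd14 by 0.01. The members lower there lay between -0.65 for Prg4 and -1.43 for Vsig4, with Tgfb2 at -0.69, Icam2 at -0.71, Rarb at -0.78 and Adgre1 at -0.82. From the list of 21 apoptotic cell receptors, C1qa (-1.03), C1qb (-1.04), C1qc (-0.95) and Mertk (-0.90) lay in the same range there. In that list 1 gene was called higher and 4 lower. Neutrophil markers had a median of 0.59 there, beside 0.08 for all genes. Whether the members differed beyond macrophage content was not tested.

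Markers of other cells moved as well. The summed level of a list adds the linear signals of its genes, so it mostly follows the brightest probes. Neutrophil markers, 19 of 20 with a probe and all 19 above background on every array, had a summed level of 10.68 on PBS and 11.41 to 11.71 on the other 4 arrays. Of the 19, 13 were higher in AEPS vs PBS and 14 in OVA vs PBS, but 1 was higher and 2 were lower in OVA+AEPS vs OVA, and 3 were higher in OVA+Alum vs OVA. Inflammatory monocyte markers summed to 8.91 on PBS and 9.30 to 9.71 on the others. Mesothelial and stromal markers had 22 of 23 with a probe, and 2 of those 22 (Bnc1 and Pdgfra) were below background on every array. They summed to 4.10 on PBS, 4.83 on AEPS, 4.27 on OVA, 4.68 on OVA+AEPS and 5.27 on OVA+Alum. In OVA+Alum vs OVA 15 of 20 measured were higher and 0 lower. Mast cell markers summed to 8.40 on PBS and 9.05 to 9.33 on the others. Of the 12 measured, 7 were called higher in each of AEPS vs PBS, OVA vs PBS and OVA+AEPS vs PBS. In OVA+Alum vs PBS 2 were, Mitf and Hdc, which is also in the neutrophil list. Over all genes, 1309 of 14933 were called higher in AEPS vs PBS and 1017 of 15043 in OVA vs PBS. In OVA+AEPS vs PBS 1246 of 14985 genes were, and in OVA+Alum vs PBS 976 of 15068. In OVA+Alum vs OVA 0 mast cell markers were higher and 3 lower. B cell markers ranged from 9.35 (OVA+AEPS) to 9.90 (PBS). Markers of small peritoneal macrophages with dendritic cells ranged over 0.25 and housekeeping genes over 0.17. Eosinophil markers summed to 4.90 on OVA+Alum and 5.51 to 5.64 on the others. That list holds Alox15, also in the list of other large peritoneal macrophage genes, at 5.19 on PBS and 3.94 on OVA+Alum. In OVA+Alum vs PBS the median of the eosinophil markers was 0.12, with 0 of 8 measured higher and 2 lower. T and NK cell markers summed to 8.85 to 9.17. Endothelial markers summed to 4.40 to 4.91, and red cell and platelet markers to 10.99 (OVA) to 12.02 (AEPS). The summed level of the 10 members was 10.03 on PBS, 9.83 on AEPS, 9.90 on OVA, 10.04 on OVA+AEPS and 9.39 on OVA+Alum. That sum follows the bright probes of Icam2, Prg4, Adgre1 and Cebpb and hardly reflects Gata6, Rarb or Rxra. In OVA+AEPS vs PBS the members' median was -0.35, with 3 called lower. The part of these other cells in the members' differences was not tested.

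**Figure D4:**
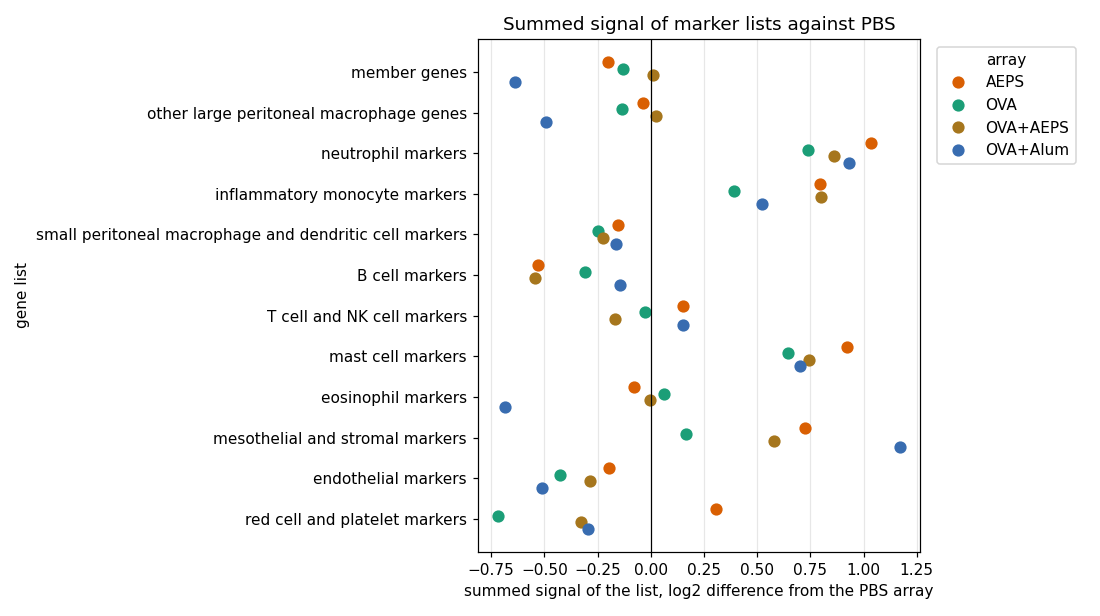
Summed signal of each gene list (rows) on the AEPS, OVA, OVA+AEPS and OVA+Alum arrays as a log2 difference from the PBS array (horizontal axis). The member genes and the other large peritoneal macrophage genes lie to the left on OVA+Alum, mesothelial and stromal markers lie farthest right on OVA+Alum, and neutrophil and mast cell markers lie to the right on all 4 arrays. Each sum mostly follows the brightest probes of its list, and 2 of 12 mast cell markers were called higher in OVA+Alum vs PBS.

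**Figure D5:**
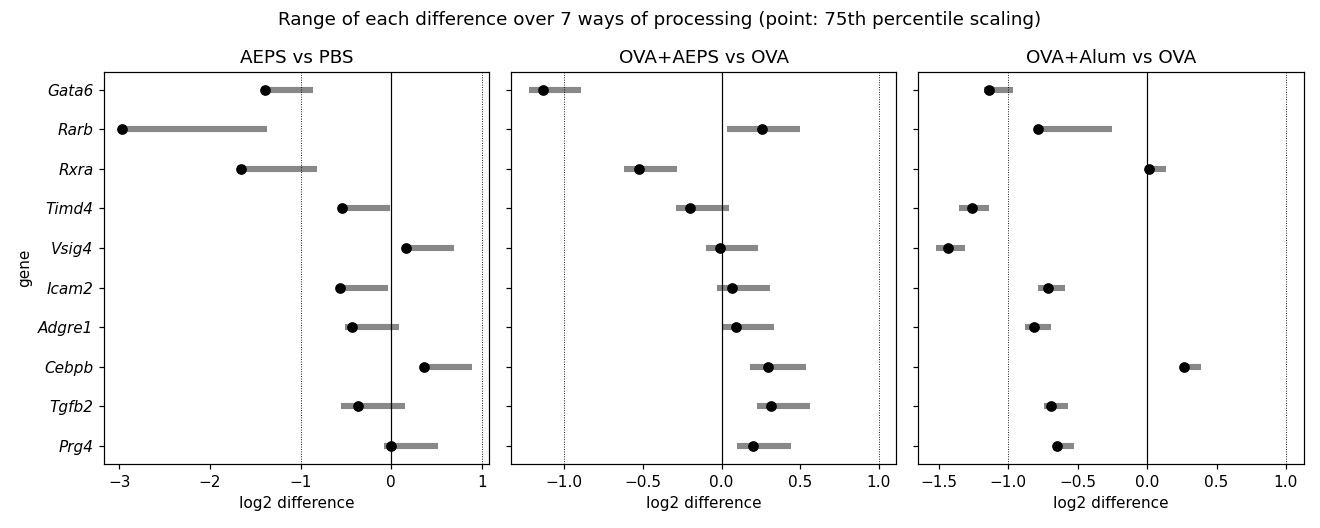
Log2 difference of the 10 genes (rows) in AEPS vs PBS, OVA+AEPS vs OVA and OVA+Alum vs OVA under 7 ways of computing the values; the point is 75th percentile scaling, the bar the lowest to highest value, and dotted lines mark 2-fold. Gata6 is below 0 throughout in all 3 panels, and Rarb has the widest bar in AEPS vs PBS (-2.98 to -1.37).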

How the data were processed

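Deposited scanner files held linear intensity values, which the authors made with Agilent Feature Extraction 10.7.1.1 (background subtraction and detrending within an array), per the file headers, and other per-spot flags of 0 or 1. The deposited series table held log2 values, whose lowest correlation with the scanner's processed signal (as log2) was 0.9998 and whose scale is inferred from the values alone.

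Control and outlier spots were dropped, log2 processed signal was centred on each array's 75th percentile, and spots of a probe were averaged. Genes came from RefSeq systematic names (26582 probes named, 29099 not). The brightest probe stood for a gene, which was compared if well above background on at least 1 of the 2 arrays, and called at 2-fold. Python 3.11.15, pandas 2.3.3, R 4.3.3 and limma 3.58.1 (normexp, offset 50) were used, and the calling was tested on simulated data. No statistical test was run, with 1 array per group. All members were named in every comparison, and from each list up to 4 genes with the largest difference in AEPS vs PBS and in OVA+Alum vs OVA, with the marker lists and macrophage-wide genes; any other gene was named after its values were seen. The members and lists were chosen with earlier results of these data known. In all, 9 alternatives were tried. Some genes the rule named are not reported here.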

Additional observations from a re-analysis of the deposited data

Results flagged for a closer look

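Each of these was picked out because the same addition went in opposite directions on different arrays. With 1 array per group the difference was not tested, and the PBS array, alone in its slide row, enters each. The OVA difference of Rarb was -2.54 without AEPS (OVA vs PBS) and 0.69 with it (OVA+AEPS vs AEPS), which differ by 3.23. For Rxra the values were -0.68 and 0.45, which differ by 1.13, and for Adgre1 -0.27 and 0.26, which differ by 0.529. The second Rxra probe gave 0.16 ± 0.24 in OVA+AEPS vs AEPS, within the technical SE. Relative to the median of all genes, Adgre1 in OVA vs PBS was at -0.13, within its technical SE of 0.20. The AEPS difference of Tgfb2 was -0.37 without ovalbumin (AEPS vs PBS) and 0.32 with it (OVA+AEPS vs OVA), which differ by 0.691. With spike-in scaling these Tgfb2 values were 0.15 and 0.56, of the same sign.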

How the results depend on the processing

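Recomputed differences of members moved by less than the technical SE in 471 cases and by more in 69, and no called difference turned its sign. The count of called members changed by over 1.5 times as follows. With scaling to the median of each array, OVA+AEPS vs OVA+Alum went from 4 to 1 and AEPS vs OVA from 1 to 2. With quantile normalization and with the deposited series table, AEPS vs OVA was 2. With normexp, OVA+AEPS vs OVA+Alum was 1. With spike-in scaling, OVA+AEPS vs OVA and AEPS vs OVA were 0. At 1.5-fold the counts were 3 in OVA vs PBS, 10 in OVA+Alum vs PBS, 8 in OVA+Alum vs OVA, 7 in OVA+AEPS vs OVA+Alum, 1 in OVA+AEPS vs AEPS and 2 in AEPS vs OVA. The cause was not tested, except that a lower fold calls more genes. The share of called genes that were higher also moved by over 10 percentage points: with spike-in scaling from 56.4% to 80.3% in AEPS vs OVA, from 57.3% to 83.4% in OVA+AEPS vs PBS, from 55.5% to 75.9% in OVA+Alum vs PBS, from 62.2% to 73.5% in OVA vs PBS, from 52.3% to 71.6% in OVA+AEPS vs OVA, from 42.8% to 54.9% in OVA+Alum vs OVA and from 51.2% to 62.0% in OVA+AEPS vs OVA+Alum, and with normexp from 62.2% to 81.5% in OVA vs PBS, from 55.9% to 69.2% in AEPS vs PBS, from 57.3% to 69.2% in OVA+AEPS vs PBS, from 55.5% to 66.6% in OVA+Alum vs PBS and from 42.8% to 27.2% in OVA+Alum vs OVA. With scaling to the median of each array it was 72.7% in OVA vs PBS and 66.9% in OVA+Alum vs PBS. It went down at 1.5-fold, to 44.7% in AEPS vs PBS, 49.1% in OVA vs PBS and 45.3% in OVA+AEPS vs PBS, and with no filter on background to 51.7% in OVA vs PBS. Over all genes, the count called in either direction moved by over 1.5 times in each comparison with normexp, for instance from 2343 to 1134 in AEPS vs PBS, from 1165 to 481 in OVA+AEPS vs OVA and from 1459 to 508 in OVA+Alum vs OVA. At 1.5-fold these counts were 5180, 2610 and 3522. No paired analysis was possible because each group has 1 array. Rarb and the second Prg4 probe are dim, and 1 array per injection limits every value.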
